A study of Mus musculus with 12 samples.

Results

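The comparison described here set K186R SMN against unmutated SMN in cultures of FAPs, the fibro-adipogenic progenitors of mouse skeletal muscle, which are stromal cells found among the fibres. Its members are the 3 libraries labelled Smn1OE_K186R and the 3 labelled Smn1OE, chosen by their titles, which makes 6 of the 12 RNA-seq libraries of the series. In K186R a lysine of the SMN protein is replaced by arginine. The design text of the series names the search for targets of Bap1 and Smn in FAPs, and the 2 groups ask how the transcriptome of cells with the mutant form differs from that of cells with the normal form.

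FAPs were sorted from fore- and hindlimb muscle as Lin- Vcam- Sca1+ cells and cultured in a serum-containing alpha-MEM medium. Both groups carried floxed Bap1 alleles, had received 4-hydroxytamoxifen (4-OHT) at 1 µM for Bap1 deletion, and were transfected with a vector for human SMN, either unmutated (Smn1OE) or K186R (Smn1OE_K186R). The protocol names Rosa-CreER as the driver of the deletion, whereas the source labels name Prrx1Cre. It names a pLVX and a pcDNA4-HisMAX backbone without saying which the cells received. No library carried an empty vector, and every SMN library had received 4-OHT. The other 6 libraries were Bap1KO (4-OHT, no vector) and WT (ethanol, no vector), with 3 of each. Replicates 1, 2 and 3 of the 2 SMN groups shared culture media batches D, E and F, so each batch held 1 library of each group. Age, sex and number of the animals are not given in the sources used here. The labels do not say whether the replicates came from separate animals, so the p-values measure only the spread between these samples, which may be technical.

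SMN, the survival motor neuron protein, works in a complex with the Gemin proteins that loads Sm proteins onto small nuclear RNAs and so builds the particles of the spliceosome. Lysines are the residues to which ubiquitin and related modifiers are attached, and arginine keeps the positive charge but cannot take them. BAP1 is a nuclear deubiquitinase. FAPs lay down matrix and secrete cytokines and growth factors that act on muscle fibres, satellite cells and nerve endings.

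Reads on mouse Smn1 were high in all 6 libraries. Smn1 stood at 5593, 3792 and 4887 CPM (read counts scaled to library size, with TMM normalisation) in Smn1OE replicates 1, 2 and 3, and at 4356, 3688 and 3777 CPM in Smn1OE_K186R. WT and Bap1KO libraries lay between 30.5 and 35.1 CPM. The vectors carry human SMN, and a count on the mouse gene does not tell vector from endogenous transcripts. Smn1 was lower in Smn1OE_K186R in all 3 batches, by -0.36, -0.04 and -0.37 on the log2 scale, and the fitted log2 fold change of -0.26 ± 0.08 (SE) did not pass the test (edgeR adjusted p = 0.243). Without replicate 2 it did (adjusted p = 0.042), and over all alternatives the adjusted p ran from 0.00269, without a filter on low counts, to 0.999. Bap1 had mean levels of 49.1 ± 1.4 CPM without and 45.3 ± 3.15 CPM with the mutation (SD, n = 3), which differed by -0.12 on the log2 scale (adjusted p = 0.493). Its mean was 50.5 ± 1.32 CPM in the WT group and 40.3 ± 1.74 CPM in the Bap1KO group. The exons that the deletion removes are not given in the sources used here, so this count does not check it.

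Depth ran from 51.2 to 66.0 M gene counts in the 6 libraries. Both replicate 3 libraries stood apart from the other 4 on the first principal component, at 49.9 and 32.5 against -8.03 to -32.3. Smn1OE_K186R replicate 2 had the largest share of reads outside genes, 3.86% against 2.84 to 3.38% in the other 5. It also had the highest level of the Y-linked gene Ddx3y, 65.3 CPM against 27.0 to 36.2 CPM. Of 26 FAP genes, Pdgfra lay between 13.9 and 29.1 CPM, Ly6a (Sca1) between 198 and 418 CPM and Thy1 between 184 and 306 CPM, while Pi16, Dpp4, Lum, Meox1, Fap and Tcf21 stayed under 1 CPM in all 6. The summed FAP level was 1980 to 2410 CPM in Smn1OE and 2170 to 2500 CPM in Smn1OE_K186R. Of 10 T and NK cell markers all stayed under 1 CPM, 5 of them at 0 in every library, among them Cd3e and Prf1. Summed macrophage markers reached 22.8 to 28.3 CPM in Smn1OE and 22.3 to 30.7 CPM in Smn1OE_K186R, with C1qb at 0. Endothelial sums were 6.28 to 6.46 and 6.37 to 6.78 CPM, Schwann sums 149 to 177 and 164 to 185 CPM, pericyte sums 310 to 420 and 361 to 420 CPM, and epithelial sums 6.30 to 9.41 and 6.06 to 8.81 CPM. The myogenic sums, 413 to 662 and 366 to 632 CPM, came mostly from Acta1 (265 to 596 CPM) and Vcam1, with Myf5 and Mymk at 0. In bulk RNA, fewer cells of a type and less RNA per cell cannot be told apart.

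With the media batch as a block, 48 of 16597 genes were higher in Smn1OE_K186R than in Smn1OE and 0 were lower (0.289% called, edgeR quasi-likelihood test, Benjamini-Hochberg adjusted p under 0.05). At an unadjusted p under 0.05, 1235 genes were higher and 675 lower. DESeq2 with the same block called 160 higher and 16 lower, and limma voom 34 higher and 1 lower. The fold changes of the 48 genes ran from 1.24 to 2.27, with a median of 1.45. Among the largest rises were the chemokines Cxcl5 (2.27-fold) and Cxcl1 (1.96-fold), the matrix proteins Thbs4 (2.08-fold), Prelp (2.02-fold) and Fmod (1.86-fold), and the extracellular enzyme Sod3 (1.79-fold).

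The difference was seen within batches, and the batches themselves differed in level. All 48 genes were higher in Smn1OE_K186R in each of the 3 batches, a property that a test with the batch as a block favours, so it is given as a description. Of all genes tested, 17.9% were higher in all 3 batches and 16.3% lower in all 3. The median log2 difference of the 48 was 0.61 in batch D, 0.46 in batch E and 0.55 in batch F. Replicate 3 was the lowest library of its group for all 48 genes. In 38 of them Smn1OE_K186R replicate 3 lay below Smn1OE replicates 1 and 2, so the unpaired ranges overlapped. The shares of all genes with these patterns were not computed, so the counts are not read as particular to the 48 genes. Only Timp3 had all Smn1OE_K186R libraries above all Smn1OE libraries, a pattern seen in 3.28% of all genes. Without the block 0 genes passed (226 higher and 162 lower at an unadjusted p under 0.05). An exact sign-flip test of 3 pairs cannot give a p below 0.25, so none is reported.

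**Figure D1:**
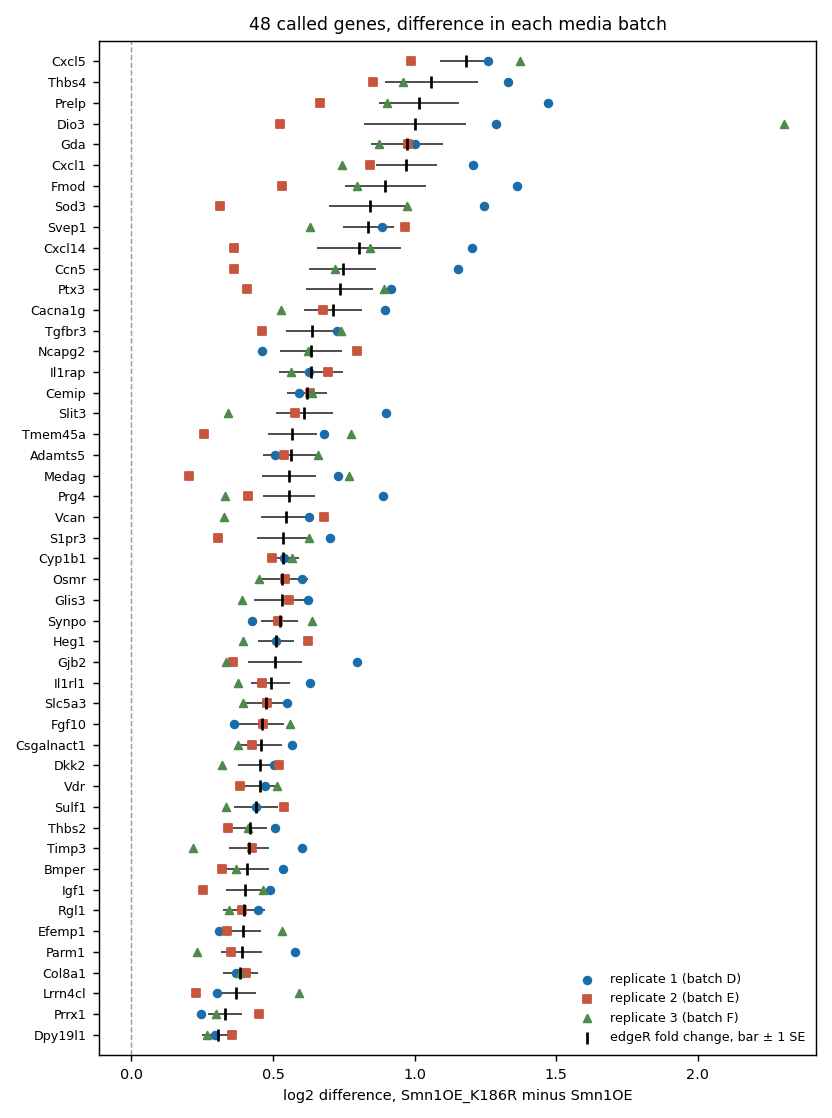
Log2 difference between Smn1OE_K186R and Smn1OE (horizontal axis) for each of the 48 called genes, ordered by fitted fold change. Coloured symbols are the 3 media batches and black ticks with bars the edgeR fold change ± 1 SE; every symbol lies right of 0, and Dio3 in batch F is the farthest out, at 2.30.

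The first group of called genes was chemokines and cytokine receptors. Cxcl5, which attracts neutrophils through the receptor CXCR2, stood at 23.6, 31.5 and 3.94 CPM in Smn1OE replicates 1 to 3 and at 56.5, 62.4 and 10.2 CPM in Smn1OE_K186R. The mutant library was the higher one in each batch, although the batch F library with K186R lay below both other Smn1OE libraries. The log2 fold change was 1.18 ± 0.09 (SE, adjusted p = 0.000158), the lowest p of the comparison, and Cxcl5 was the 1 gene that passed after any pair was left out. Cxcl1, a ligand of the same receptor, went from 6.37, 5.35 and 2.01 CPM to 14.7, 9.61 and 3.37 CPM, a log2 difference of 0.97 ± 0.11 (adjusted p = 0.00265). Its difference was largest in batch D, at 1.21, and was 0.84 and 0.74 in batches E and F. Cxcl14, a chemokine of another branch, stood at 35.1, 32.0 and 11.5 CPM in Smn1OE and at 81.0, 41.1 and 20.7 CPM in Smn1OE_K186R (log2 fold change 0.80, adjusted p = 0.0447), and its difference in batch E, 0.36, was the smallest of the 3.

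Cxcl5 and Cxcl1 belong to one chromosomal cluster of chemokine genes, with Ppbp, Pf4, Cxcl3 and Cxcl15 between them in RefSeq. The stretch before the start of Cxcl1 is shown because this gene is among those with the lowest p and its window holds a match to the NF-kB motif GGGNNNTTCC, in capitals. The sequence is from RefSeq, build GRCm38.p6, plus strand, chr5:90891125-90891244, and ends at the base before the start.
Cxcl1: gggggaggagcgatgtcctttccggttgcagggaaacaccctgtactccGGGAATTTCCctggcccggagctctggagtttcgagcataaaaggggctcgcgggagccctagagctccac
The match lies 71 to 62 bases before the start. Of the 48 genes, 37 had a promoter entry. Within 250 bases before the start, on either strand, GGGNNNTTCC occurred in 2 of the 37 (Cxcl1 and Rgl1), or 5.41%, against 5.31% of all 27025 genes in the table. The AP-1 motif TGANTCA occurred in 3 of the 37 (8.11% against 7.82%), the TEAD motif GGAATG in 4 (10.8% against 14.4%) and TATAAA in 5 (13.5% against 14.3%). Matches of different motifs were counted separately, also where they overlap, as GGAATG can with the other strand of GGGNNNTTCC. These shares describe the letters in these windows only.

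Il1rl1, Il1rap and Osmr, which are receptors or receptor subunits for inflammatory cytokines, were also among the called genes. Il1rl1, the receptor of interleukin-33, stood at 127, 123 and 54.6 CPM in Smn1OE and at 197, 169.8 and 70.9 CPM in Smn1OE_K186R (log2 fold change 0.49 ± 0.07, adjusted p = 0.0112). Il1rap, its co-receptor, which was named after its values were seen, went from 18.2, 21.6 and 9.64 CPM to 28.1, 35 and 14.3 CPM (0.63 ± 0.11, adjusted p = 0.0378). Il1rl1 was higher by 0.38 to 0.63 across the batches and Il1rap by 0.56 to 0.70. Osmr, the receptor of oncostatin M, also named after its values were seen, rose by 0.53 (adjusted p = 0.0295). Ptx3, a secreted pattern recognition protein, stood at 159, 142 and 30.8 CPM in Smn1OE and at 299.6, 188 and 57.2 CPM in Smn1OE_K186R (0.74 ± 0.12, adjusted p = 0.0229).

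In a list of 35 inflammatory genes, 32 were tested, 4 were higher (Cxcl5, Cxcl1, Il1rl1 and Cxcl14) and 0 lower, against 0.289% of all genes called. This list and those below were chosen with earlier results of these data known, so comparisons with all genes are descriptions only. The median log2 fold change of the list was 0.44, against 0.0041 over all genes, and 29 of the 32 values were positive (90.6%, against 51.1% of all genes). Its median was 0.77 in batch D, 0.16 in batch E and 0.38 in batch F. Without replicate 1 the list's median was 0.22, with 22 of 31 values positive and 1 gene called, and without replicate 2 it was 0.63, with 6 genes called. Ccl2, the main monocyte chemokine, stood at 156, 123 and 54.8 CPM in Smn1OE and at 266, 137 and 98.1 CPM in Smn1OE_K186R. Its log2 fold change of 0.59 missed the threshold (adjusted p = 0.0880) but passed without replicate 2. Il6 had a log2 value of 0.63 (adjusted p = 0.0926) and Ccl7 one of 0.47 (adjusted p = 0.132). Among NF-kB subunit and feedback genes of the list, Nfkbia had 0.09, Nfkb2 -0.07, Relb -0.07 and Tnfaip3 -0.20, with adjusted p-values of 0.630 to 0.778. A part of NF-kB in these differences was not tested.

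None of the 16 tested complement genes passed (6 higher and 0 lower at an unadjusted p under 0.05, and 1 higher by DESeq2). Of all 16597 genes, 1235 were higher and 675 lower at that unadjusted p, the background for such counts here and below. C3, the central complement component, stood at 3.90, 2.68 and 0.189 CPM in Smn1OE and at 10.9, 3.84 and 0.697 CPM in Smn1OE_K186R (log2 fold change 1.12, adjusted p = 0.129). Of 39 tested interferon response genes 0 passed with edgeR or DESeq2 (2 higher and 0 lower at an unadjusted p under 0.05). The median of this list was 0.22, but it was 0.74 in batch D against -0.03 in batch E, and -0.02 in the fit without replicate 1.

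**Figure D2:**
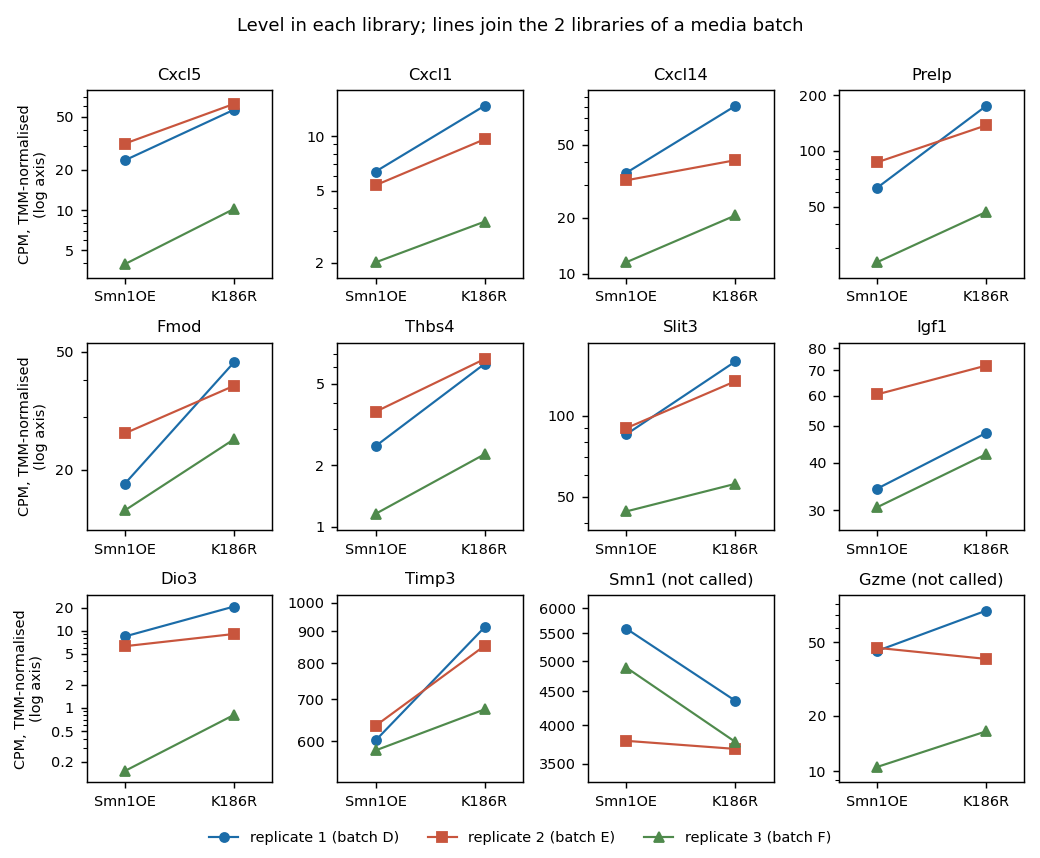
Level of 12 genes in each library (vertical axis, TMM-normalised CPM, log scale), with lines joining the 2 libraries of a media batch. The lines of the 10 called genes all rise from Smn1OE to Smn1OE_K186R, those of Smn1 all fall, and that of Gzme falls in batch E; replicate 3 is the lowest library for every called gene.

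Matrix proteins made up another group. Prelp and Fmod, small leucine-rich proteoglycans that bind collagen, are neighbouring genes in RefSeq. Prelp stood at 63.1, 86.6 and 25 CPM in Smn1OE and at 174.9, 137 and 46.8 CPM in Smn1OE_K186R (log2 fold change 1.01 ± 0.14, adjusted p = 0.0112). Fmod went from 17.9, 26.5 and 14.6 CPM to 46.0, 38.4 and 25.3 CPM (0.90 ± 0.14, adjusted p = 0.0229). In both genes the mutant library was higher in each batch, most in batch D (1.47 and 1.36) and least in batch E (0.66 and 0.53). Thbs4, a matricellular protein of tendon and muscle attachment sites, was much scarcer, at 2.47, 3.64 and 1.15 CPM against 6.24, 6.59 and 2.26 CPM (1.06 ± 0.16, adjusted p = 0.0229). Svep1, a large adhesion protein, rose by 0.84 ± 0.09 (adjusted p = 0.00215), from 45.2, 39.1 and 16.6 CPM to 83.6, 76.3 and 25.7 CPM.

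Among the more abundant matrix genes the differences were smaller. Timp3, an inhibitor of matrix metalloproteinases, stood at 601, 635 and 579.7 CPM in Smn1OE and at 913, 853 and 674 CPM in Smn1OE_K186R (log2 fold change 0.42 ± 0.07, adjusted p = 0.0301). Vcan, a hyaluronan-binding proteoglycan, went from 150.1, 188 and 126 CPM to 232, 302 and 158 CPM (0.55 ± 0.09, adjusted p = 0.0229). Thbs2 rose by 0.42 (adjusted p = 0.0118) and Col8a1 by 0.38 (adjusted p = 0.0229), both with like differences in the 3 batches (0.34 to 0.51 and 0.37 to 0.40). Of 38 tested genes in a matrix list, these 4 were higher and 0 lower, against 0.289% of all genes called. The median log2 fold change of the list was 0.19 (0.0041 over all genes), and 35 values were positive (92.1%, against 51.1% of all genes). The fibrillar collagens did not pass: Col1a1 had 0.26 (adjusted p = 0.246), Col1a2 0.33 (adjusted p = 0.174) and Col3a1 0.52 (adjusted p = 0.175). Lox and Fbn1 had 0.43 and 0.35, with adjusted p-values of 0.0622 and 0.0583. The list's median was 0.34, 0.21 and 0.12 in batches D, E and F, and 0, 3 and 2 of its genes passed without replicate 1, 2 and 3.

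Other called genes, grouped after their values were seen, act on the matrix or belong to it. Cemip, which degrades hyaluronan, rose 1.54-fold, in a narrow range of log2 differences from 0.59 to 0.64 across the batches. The aggrecanase Adamts5 rose 1.48-fold, the heparan sulfate editing enzyme Sulf1 1.36-fold and the chondroitin sulfate synthesis enzyme Csgalnact1 1.37-fold. Efemp1 (fibulin-3) rose 1.31-fold and the lubricant proteoglycan Prg4 1.47-fold. Sod3, which removes superoxide outside cells, stood at 73.4, 88.6 and 28.2 CPM in Smn1OE and at 174.0, 110.0 and 55.5 CPM in Smn1OE_K186R (log2 fold change 0.84 ± 0.14, adjusted p = 0.0301). Its difference in batch E, 0.31, was a small one beside 1.24 and 0.97 in the other batches.

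Secreted signals and their receptors followed. In a list of 38 tested genes for factors that support nerves or guide axons, 4 were higher (Thbs4, Slit3, Igf1 and Fgf10) and 0 lower. The median log2 fold change of the list was 0.16, against 0.0041 over all genes, of which 0.289% were called. Without replicate 1, 0 genes of the list passed, and without replicate 2 or 3, 1 did. Slit3, a ligand of Robo receptors, stood at 85.2, 89.8 and 44.1 CPM in Smn1OE and at 159, 134 and 55.8 CPM in Smn1OE_K186R (0.61 ± 0.10, adjusted p = 0.0273). Igf1, a growth factor for muscle and motor neurons, went from 34.1, 60.5 and 30.5 CPM to 47.9, 72.1 and 42.1 CPM (0.40 ± 0.07, adjusted p = 0.0298). Fgf10 went from 15.6, 23.0 and 10.8 CPM to 20.0, 31.7 and 15.9 CPM (0.46 ± 0.08, adjusted p = 0.0304). For Igf1 and Fgf10 the batch E libraries were the highest of both groups, so the groups overlapped.

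Some neurotrophic factors of that list did not pass. On the log2 scale Bdnf had -0.08 (adjusted p = 0.694) and Gdnf 0.14 (adjusted p = 0.710). Agrn, which clusters acetylcholine receptors at the neuromuscular junction, had 0.11 (adjusted p = 0.761). Fgf7 and Slit2 had 0.31 and 0.41, with adjusted p-values of 0.0713 and 0.0926.

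Of 28 tested Wnt and hedgehog genes, 1 was higher, Dkk2, a Wnt co-receptor ligand, and 0 were lower (0.289% of all genes were called). Dkk2 was at 12.7, 12.2 and 8.82 CPM in Smn1OE and 18, 17.6 and 11 CPM in Smn1OE_K186R (log2 fold change 0.45 ± 0.08, adjusted p = 0.0302). Sfrp1, a secreted Wnt inhibitor, had a larger value that varied more, 29.3, 44.9 and 6.99 CPM against 86.2, 71.9 and 11.4 CPM (1.01, adjusted p = 0.0880). Ccn5, a matricellular growth regulator, stood at 48.9, 55.6 and 31.0 CPM in Smn1OE and at 109, 71.5 and 51.2 CPM in Smn1OE_K186R (0.75 ± 0.12, adjusted p = 0.0229). Tgfbr3, a co-receptor for TGF-beta ligands, rose by 0.64 ± 0.09 (adjusted p = 0.0112). Bmper, which binds bone morphogenetic proteins, rose 1.33-fold and the sphingosine 1-phosphate receptor S1pr3 1.45-fold, both named after their values were seen.

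The remaining called genes had varied roles. Dio3, the selenoenzyme that inactivates thyroid hormone, was at 8.44, 6.31 and 0.151 CPM in Smn1OE and at 20.6, 9.09 and 0.810 CPM in Smn1OE_K186R (log2 fold change 1.00 ± 0.18, adjusted p = 0.0419). It was the only called gene among 20 selenoprotein genes (0.289% of all genes were called), and its batch F libraries were both under 1 CPM. Gda, the guanine deaminase, went from 4.21, 3.03 and 0.814 CPM to 8.45, 5.98 and 1.51 CPM (0.97 ± 0.13, adjusted p = 0.00734). Cacna1g, a T-type calcium channel subunit, rose by 0.71 ± 0.10 (adjusted p = 0.0118) and Ncapg2, a condensin II subunit, by 0.63 ± 0.11 (adjusted p = 0.0305). Of the 25 tested FAP identity genes, the limb mesenchyme factor Prrx1 was higher, at 181, 166 and 122 CPM in Smn1OE and 215, 226 and 149.9 CPM in Smn1OE_K186R (0.33 ± 0.06, adjusted p = 0.0422). Pdgfra had 0.32 (adjusted p = 0.137). Prrx1 was the only called gene of this list, against 0.289% of all genes. The list's values ran from -1.11 to 0.95, and 15 were positive (60%, against 51.1% of all genes). Its median was 0.15, -0.09 and 0.19 in batches D, E and F. In all 3 batches 7 of its genes were higher (28%, against 17.9% of all genes) and 3 lower (12%, against 16.3%).

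The 23 called genes outside the naming rule had fold changes of 1.24 to 1.55 and adjusted p-values of 0.00215 to 0.05. The lowest of these p-values belonged to Cyp1b1, a monooxygenase, at 227, 178 and 67.6 CPM in Smn1OE and 329.7, 252 and 100.2 CPM in Smn1OE_K186R, whose log2 differences of 0.54, 0.50 and 0.57 were among the most even. Cemip, described above, came next by p, and then Heg1 (0.51), Synpo (0.52) and the vitamin D receptor Vdr (0.45). Those not yet described were Tmem45a (1.48-fold), Medag (1.47-fold), the transcription factor Glis3 (1.45-fold), the gap junction gene Gjb2 (1.42-fold), Slc5a3 (1.39-fold), Rgl1 (1.32-fold), Parm1 (1.31-fold), Lrrn4cl (1.29-fold) and Dpy19l1 (1.24-fold). Overlapping annotated exons make the counts of 11 called genes uncertain, since the strand setting of the counting is not given in the sources used here. For 8 of these the overlap is on the other strand: Svep1, Heg1, Prelp, Prg4, Timp3, S1pr3, Fgf10 and Il1rap.

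Of the genes with lower values none passed in the edgeR test. The lowest p-values, read after the values were seen, belonged to Whrn, at 44.8, 36.6 and 62.6 CPM in Smn1OE and 34, 30.1 and 46.7 CPM in Smn1OE_K186R (log2 fold change -0.37, adjusted p = 0.0818), and to Nes, the intermediate filament nestin, at 71.3, 73.6 and 82.8 CPM against 50.3, 57.0 and 63.3 CPM (-0.42, adjusted p = 0.0880). All 3 Nes libraries with K186R lay below all 3 without it. The share of all genes with that pattern was not computed, so it is not read as particular to Nes. Csrp2, a LIM domain protein, had -0.32 (adjusted p = 0.0927). Among the alternatives, Nes passed in the fit to the 6 SMN libraries alone and by DESeq2, and Whrn by DESeq2 and by limma voom.

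Genes of the SMN pathway itself did not pass. In the list of 16 tested SMN complex and assembly genes 0 were called, and at an unadjusted p under 0.05, 1 was higher and 2 lower (0 by DESeq2). Gemin2, the closest SMN partner, was at 5.77, 6.59 and 6.89 CPM in Smn1OE and 5.73, 6.08 and 6.01 CPM in Smn1OE_K186R (log2 fold change -0.11, adjusted p = 0.732). Gemin5, which recognises the small nuclear RNAs, had 0.0092 (adjusted p = 0.973) and the helicase Ddx20 -0.10 (adjusted p = 0.667). Of 25 Sm and LSm genes 0 passed by either tool (0 higher and 5 lower at an unadjusted p under 0.05). Of all 16597 genes, 1235 were higher and 675 lower at that p. Of the Sm and LSm values 23 were negative, with a median of -0.10 (8% positive, against 51.1% of all genes). The negative values lay mostly in batch E, with medians of -0.01, -0.31 and 0.04 in batches D, E and F. Without replicate 2, 13 of the 25 values were positive. Of 29 splicing regulators 0 passed (2 higher and 0 lower at an unadjusted p under 0.05, 1 higher by DESeq2), and of 25 ubiquitin and SUMO genes 0 passed (1 higher and 2 lower, 0 by DESeq2).

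Lists of housekeeping genes had negative medians that lay mostly in 1 batch. The 40 cytosolic ribosomal protein genes had a median log2 fold change of -0.15 and 0 positive values, but their median was -0.44 in batch E against -0.04 in batch D and 0.02 in batch F. The 34 nuclear genes of oxidative phosphorylation had -0.32 in batch E against -0.01 and 0.05, the 31 proteasome genes -0.28 against -0.05 and 0.01, and the Sm and LSm genes -0.31 against -0.01 and 0.04. Without replicate 2 the medians of the 4 lists were -0.01, 0.02, -0.03 and 0.00055. None of these genes was called by edgeR or DESeq2 (at an unadjusted p under 0.05, 8, 3, 3 and 5 of them were lower and 0 higher). At that p, 675 of all 16597 genes were lower and 1235 higher. Of 40 cell cycle genes 0 passed (3 higher and 1 lower at an unadjusted p under 0.05, 0 by DESeq2), with a median of 0.07, and of 31 p53 target genes 0 passed (0 higher and 4 lower, 0 by DESeq2), with a median of -0.0029.

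**Figure D3:**
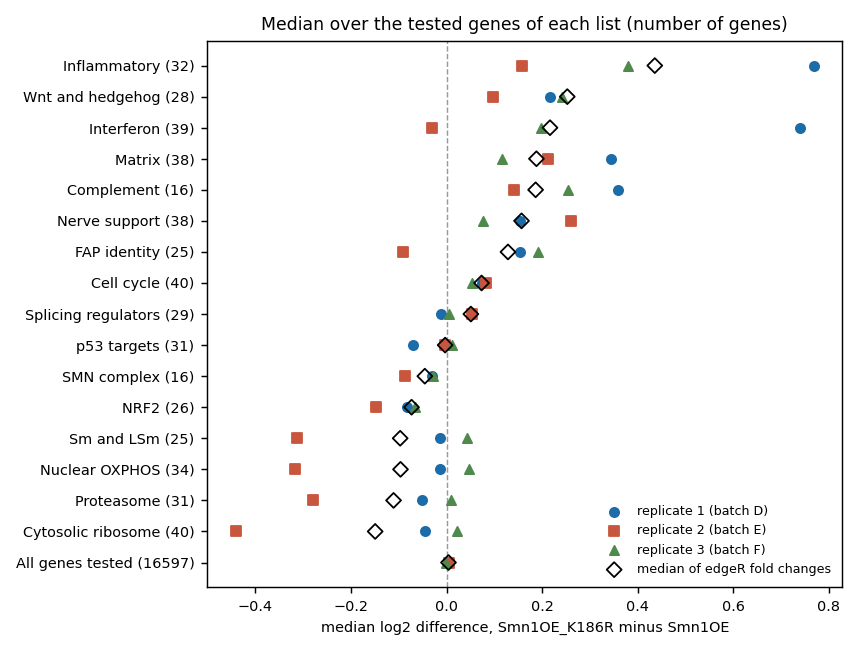
Median log2 difference between Smn1OE_K186R and Smn1OE (horizontal axis) over the tested genes of 16 lists and over all genes, with the number of genes in brackets. Coloured symbols are the 3 media batches and open diamonds the median fitted fold change; the inflammatory list is highest in batch D, at 0.77, and the cytosolic ribosome list lowest in batch E, at -0.44.

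Gene length moved with the difference in batch E. With the tested genes in 4 equal classes by summed exon length, the median log2 difference of batch E was -0.22, -0.08, 0.04 and 0.20 from the shortest to the longest class. Batches D and F stayed between -0.01 and 0.02 in all classes. The called genes numbered 6, 9, 11 and 22 in these classes, and their median exon length was 5954 bases against 3900 bases for all genes tested. With a length trend removed from each library, in a fit chosen after the data were seen, 62 genes were higher and 2 lower (Nes and Whrn). These 62 include 43 of the 48, and Igf1, Prrx1, Adamts5, Glis3 and Slc5a3 no longer passed. With a GC trend removed instead, 39 genes were higher and 0 lower, 34 of them among the 48. With both trends removed 59 were higher and 1 lower, and 38 of the 48 were among those called.

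**Figure D4:**
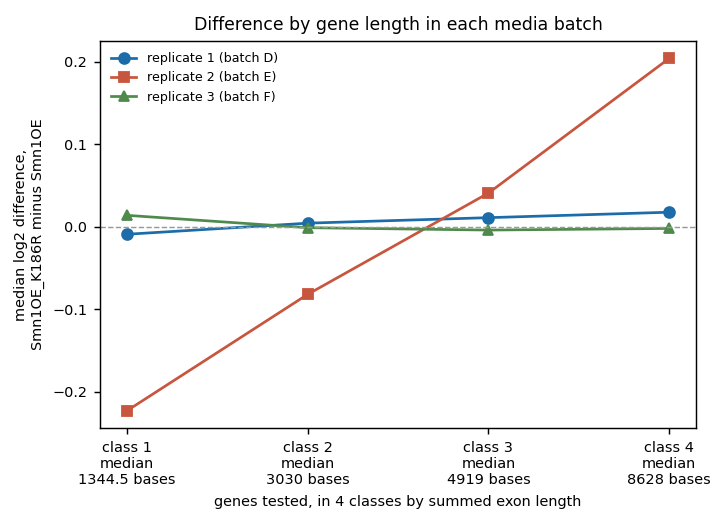
Median log2 difference between Smn1OE_K186R and Smn1OE (vertical axis) in 4 equal classes of the tested genes ordered by summed exon length (horizontal axis), 1 line per media batch. The line of batch E climbs from -0.22 to 0.20, and those of batches D and F stay near 0.

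The number of called genes depended on which pair of libraries was in the fit. Without replicate 1, 1 gene passed (Cxcl5). Without replicate 2, 42 genes were higher and 1, Smn1, was lower, and 30 of the higher ones were among the 48. Without replicate 3, 15 were higher and 0 lower, 14 of them among the 48. Genes called from 2 batches were then read in the batch left out. Cxcl5 differed by 1.26 in batch D. Of the 42 genes called higher without batch E, 38 were higher there, with a median log2 difference of 0.36, against 50.6% of all genes. The share of all genes is not matched for length, and in batch E the longest length class had a median of 0.20. The part of length in this count was not tested. Of the 15 called without batch F, 15 were higher there, with a median of 0.53, against 49.8% of all genes. Each batch left out is 1 pair of libraries, in which genes can vary together. The counts are therefore descriptions, and their genes are not independent repeats.

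The Smn1 level moved with the result in part: its difference was -0.36 and -0.37 in batches D and F and -0.04 in batch E, while the median of the 48 genes was 0.61, 0.55 and 0.46. Its part in the result was not tested.

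Granzyme genes, which the study follows, were read in both groups. Gzme stood at 44.8, 46.6 and 10.5 CPM in Smn1OE and at 74.1, 40.6 and 16.5 CPM in Smn1OE_K186R. It was higher with K186R in batches D and F and lower in batch E, and its log2 fold change of 0.37 ± 0.14 did not pass (adjusted p = 0.345), though it did without replicate 2 (adjusted p = 0.00326, with a range over all alternatives of 0.00035 to 0.999). Gzmc had 0.88 ± 0.27 (adjusted p = 0.25) at levels of 0.189 to 1.2 CPM, and Gzmd 0.19 ± 0.19 (adjusted p = 0.729). Gzmm, near 1 CPM, had -0.11 ± 0.27 (adjusted p = 0.901). Granzymes C, D and E are near-identical copies, and their reads can be split or lost in counting.

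The 48 genes were also read in the other 2 groups. Bap1KO and WT were grown in other media batches, and had Xist counts of 197 to 305 CPM and no Y-linked counts, whereas the 6 SMN libraries had Y-linked counts and at most 0.113 CPM of Xist. A difference in SMN from these groups cannot be told apart from one in batch or in the sex of the cells. The mean level of Cxcl5 was 19.7 ± 14.2, 43.0 ± 28.6, 136 ± 5.26 and 148 ± 16.2 CPM in Smn1OE, Smn1OE_K186R, Bap1KO and WT (SD, n = 3). Prelp averaged 58.3 ± 31.1, 119.7 ± 65.9, 645 ± 214 and 852 ± 175 CPM in the same order, and Timp3 605 ± 27.8, 813 ± 124, 1114 ± 157 and 922 ± 123 CPM. Slc5a3, a myo-inositol transporter, had the smallest ratio of Bap1KO to Smn1OE means, 1.34, and Thbs4 the largest, 21.7. Over the 48 genes the median log2 mean lay 0.55 above Smn1OE in Smn1OE_K186R, 1.62 above it in Bap1KO and 1.69 above it in WT. All of these differences share the Smn1OE libraries.

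**Figure D5:**
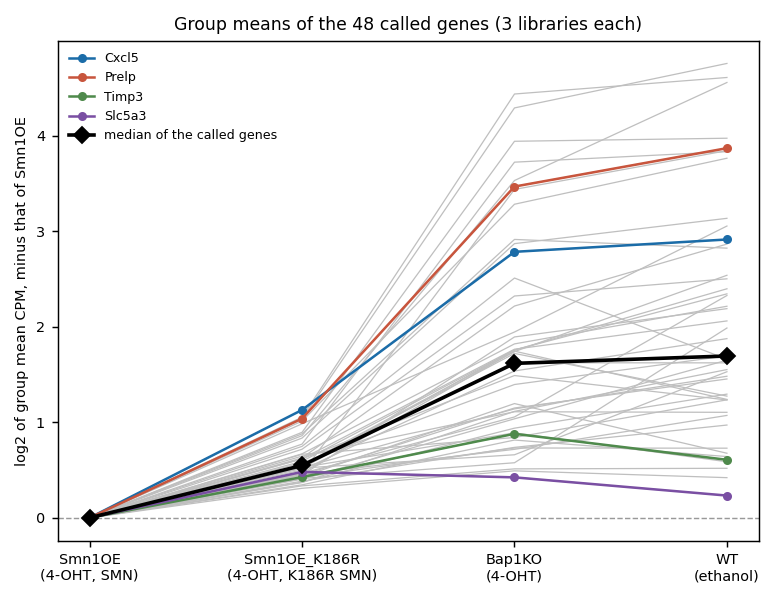
Log2 of the group mean CPM minus that of Smn1OE (vertical axis) for the 48 called genes in the 4 groups of 3 libraries; grey lines are single genes and black diamonds the median. The median is 0.55 in Smn1OE_K186R, 1.62 in Bap1KO and 1.69 in WT, and all lines start from the same Smn1OE libraries.

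The contrast of Bap1KO with WT uses none of the SMN libraries, and was read in the same fit. In it 4814 genes were called (29%), 1967 higher in Bap1KO (11.9%) and 2847 lower (17.2%). Of the 48 genes 33 were called there, 26 lower and 7 higher in Bap1KO. Thbs2 was lower by -1.41 (adjusted p = 1.99e-08), Dkk2 by -1.28 (adjusted p = 2.67e-07), Gda by -1.14 (adjusted p = 8.40e-06) and Cxcl14 by -1.10 (adjusted p = 8.52e-05). Cacna1g, Bmper, Csgalnact1, Tmem45a, Cyp1b1, Timp3 and Cemip were higher, by 0.27 to 0.82. Cxcl5, with -0.12 (adjusted p = 0.293), Fmod, Svep1 and Ptx3 were among those that did not pass.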

How the data were processed

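RNA-seq read counts per gene were analysed for 12 libraries of mouse FAPs. The authors deposited raw counts, 1 file per library, each with 55335 genes and 5 rows for reads without a gene. The submitters' processing notes name STAR 2.6.1, HTSeq 0.9.1, cutadapt 1.4.2, CASAVA 1.8.2 and DESeq2 (no version), with the build GRCm39. The annotation release and strand setting are not given in the sources used here. The 5 rows held 13.5 to 14.6% of the records of the 6 SMN libraries and were left out. Gene symbols and exon lengths came from GENCODE M21 (GRCm38), which matched 55154 IDs. Exon overlaps were read from that annotation, and promoter windows and neighbouring genes from RefSeq (GRCm38.p6). The builds differ from the GRCm39 of the counts, so the 1 printed position is that of a RefSeq promoter stretch.

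Counts were fitted with edgeR 4.0.16 in R 4.3.3: TMM normalisation, filterByExpr with a minimum count of 10, and a quasi-likelihood fit of all 12 libraries with the 6 media batches as a block and a term for each contrast within batches (4 residual degrees of freedom). Tests were 2-sided, with Benjamini-Hochberg adjustment over 16597 genes and a threshold of 0.05. The samples were paired by number because the labels say that a number marks a shared media batch. Over genes, the correlation of each library's departure from its group mean was 0.36, 0.28 and 0.40 within batches and -0.29 to -0.037 between them. Departures within a group sum to 0, so positive values within batches bring negative ones between them. The negative values are therefore no separate evidence for the pairing. Differences in a single batch use log2 CPM with a prior count of 1. Alternatives were other normalisation, filters and libraries, no block, DESeq2 1.42.0, limma 3.58.1 voom, omission of each pair, and removal of length and GC trends. The code was tested on simulated data. As a check for libraries deposited more than once, pairs within the 2 SMN groups gave 41 to 95.4 in chi-square per degree of freedom, so none agreed within sampling noise. Between the groups, the pairs of batches D, E and F gave 19.9, 68.9 and 9.56. For Smn1OE replicate 2 the batch partner was the farthest library. It was nearer to Smn1OE_K186R replicates 1 and 3 (53.1 and 27.1) and to Smn1OE replicates 1 and 3 (42.3 and 41). For Smn1OE_K186R replicate 2 the batch partner was the nearest library (68.9, with the others at 83.2 to 117).

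Named genes were Smn1, Bap1, 4 granzymes, the 15 largest rises and the 15 largest falls among called genes with the same sign in all pairs and a mean of at least 1 CPM (no fall was called), and called members of 38 lists (877 symbols). The members and lists were chosen with earlier results of these data known.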

Additional observations from a re-analysis of the deposited data

How the results depend on the processing

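The count of calls depended on the block. With no replicate block, over 12 libraries or over the 6 SMN libraries, 0 genes were called, 0 higher and 0 lower, while the block called 48. The fit to the 6 SMN libraries with the block gave 34 higher and 1 lower, and limma voom with the block 34 higher and 1 lower. Without a filter on low counts 382 genes were called, 335 higher and 47 lower, and with DESeq2 176, 160 higher and 16 lower; the cause was not tested. Omission of a pair gave 1 to 43 calls in all, 1 to 42 higher and 0 to 1 lower, with the fewest without replicate 1. Alternatives added after seeing the data moved the lower calls, to 2 with the length trend removed and to 1 with the length and GC trends removed. Over the omissions Gzmd ran from -0.15 to 0.39 and Gzmm from -0.20 to 0.0026, and both changed sign without replicate 1; neither was called. Depth limits genes under about 1 CPM, such as Dio3 in batch F.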
